A study of Mus musculus with 6 samples.

Results

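The genes described here build and control the attachment of chromosomes to the mitotic spindle: the kinetochore, the spindle assembly checkpoint, the chromosomal passenger complex, the Aurora A kinase pair and the regulators of the anaphase-promoting complex (APC/C). They were taken as a list of 43 gene symbols, all found among the 53801 Ensembl gene identifiers counted. RNA was sequenced from MC3T3-E1 cells, a mouse calvarial pre-osteoblast line, in 3 Control and 3 Hdac4-knockdown libraries. Control cells carried a lentivirus with a scrambled non-silencing hairpin, and Hdac4-knockdown cells carried one with a short hairpin RNA against Hdac4, a class IIa histone deacetylase. The labels describe 3 hairpins but do not say which was sequenced, and the study's text names Hdac4-shRNA3. In both groups the vector had a U6 promoter for the hairpin, the green marker ZsGreen1 and a puromycin resistance gene, and both were selected in 5 µg/mL puromycin for 7 days. The libraries of a group came from independent RNA samples, but no source used here says that these came from separate infections, so the p-values measure the spread between RNA samples.

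The kinetochore is the protein structure that forms on each centromere and grips spindle microtubules in mitosis. While any kinetochore is unattached, the checkpoint proteins hold the APC/C, a ubiquitin ligase, in check. Once all are attached, the APC/C with its activator Cdc20 marks securin and cyclin B for destruction, and the sister chromatids separate. Many of the genes for these proteins are transcribed mainly in the G2 and M phases of the cell cycle, so their level in bulk RNA follows how many cells are in those phases as well as how much RNA each cell holds. Fewer such cells and less RNA per cell cannot be told apart in these libraries.

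The libraries were of similar depth, with 29096544 to 31651826 counts on genes, and from 19373 to 19797 genes had a count in Control libraries against 22148 to 22640 in Hdac4-knockdown libraries. Hdac4 itself was counted 1243, 1204 and 1136 times in Control and 950, 927 and 887 times in Hdac4-knockdown libraries, so 73.6% of its Control level in CPM (normalized counts, scaled to library size with TMM factors) was left (log2 fold change -0.44, SE 0.057, adjusted p = 8.98e-07).

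All 43 members were lower in Hdac4-knockdown cells. Each passed the filter on low counts, each was called lower by edgeR's quasi-likelihood test (adjusted p below 0.05 after Benjamini-Hochberg adjustment over all genes tested, log2 fold change beyond 0.05 in size), and none was called higher. Lower calls were common in this comparison: 5393 of the 14531 genes tested, or 37.1%, were called lower, and 38% were called higher, shares that moved with the scaling (4608 lower and 6316 higher with the upper quartile). For 27 members the log2 fold change was below -1, where 10.6% of all genes tested were called lower by that much. In all 43 members every Hdac4-knockdown library lay below every Control library, which held for 38% of all genes tested. The median log2 fold change was -1.16 over the members and 0.01 over all genes tested.

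Summed, the members were at 4012, 3980 and 3987 CPM in the Control libraries and 1771, 1719 and 1815 CPM in the Hdac4-knockdown libraries. The groups lay far apart against their spread, at 3993 ± 16.8 CPM and 1768 ± 48.1 CPM (SD, n = 3), so that 44.3% of the Control sum was left. No member was rare, as the lowest count of any member in any library was 141. The differences ran from -2.20 on the log2 scale in Ube2c to -0.17 in Mad1l1.

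**Figure D1:**
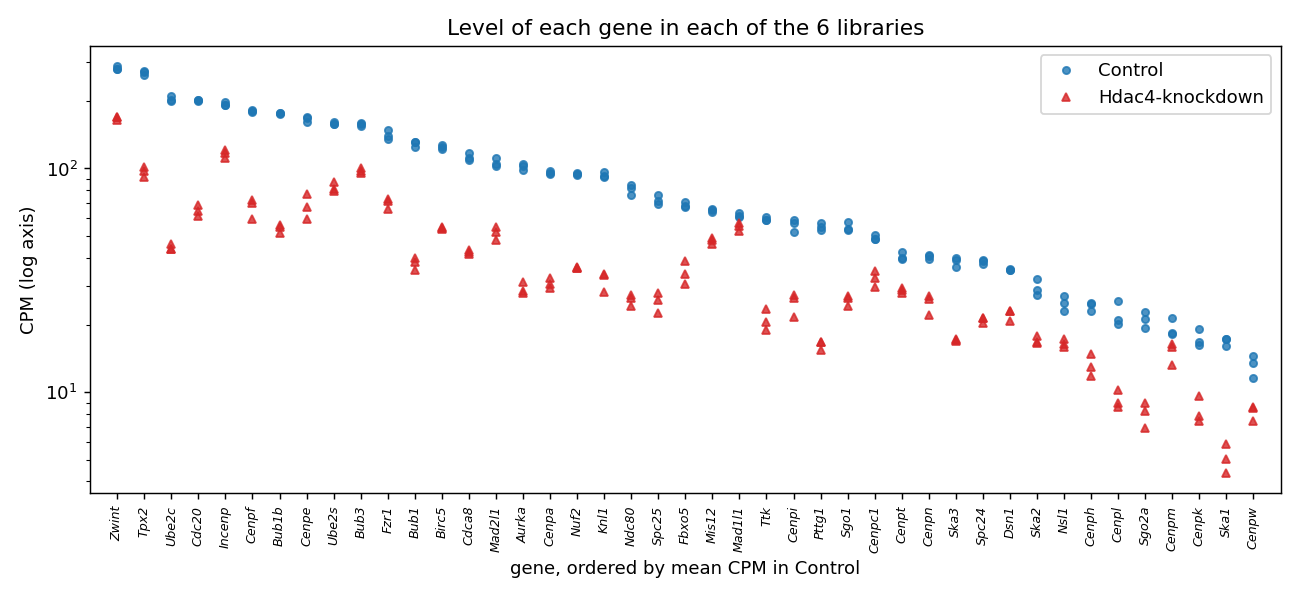
Each gene's level in CPM (normalized counts scaled to library size, vertical, log axis) in the 3 Control libraries (circles) and the 3 Hdac4-knockdown libraries (triangles), with the 43 genes ordered along the horizontal axis by their mean level in Control. For every gene the triangles lie below the circles, by least in Mad1l1.

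Promoters are shown before the single genes, because the members moved together and G2/M genes are known for short elements near their start. The cell cycle gene homology region (CHR) is bound by the MuvB complexes that turn such genes off and on, and CCAAT boxes are bound by the factor NF-Y. RefSeq's promoter set (GRCm38.p6, 250 bases before to 50 after each annotated start) held 43 promoters of 38 members, and those of Nsl1, Incenp, Tpx2, Spc24 and Ska1 were not in it. The letters searched were TTTGAA and TTCGAA for the CHR, and CCAAT, each on both strands, where TTCGAA reads the same both ways. A match to a few letters describes the sequence and is neither a bound site nor a cause.

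The stretches below run from 100 bases before to 50 after the start, 5′ to 3′ along the gene, with CHR and CCAAT letters in capitals (TTCAAA and ATTGG are the reverse strand). First come 6 members that fell by more than 1 on the log2 scale and hold both letters. Nuf2, which fell by 1.39 with neither, Mis12, with CCAAT alone, and Mad1l1, the smallest change, follow as contrasts. They were picked after their values were seen. In GRCm38.p6 the stretches are Ube2c at chr2:164769829-164769978 on the plus strand, Bub1 at chr2:127831810-127831959 on the minus strand, Cdc20 at chr4:118437294-118437443 on the minus strand, Spc25 at chr2:69206164-69206313 on the minus strand, Ttk at chr9:83834589-83834738 on the plus strand, Cdca8 at chr4:124936868-124937017 on the minus strand, Nuf2 at chr1:169531415-169531564 on the minus strand, Mis12 at chr11:71019511-71019660 on the plus strand and Mad1l1 at chr5:140321503-140321652 on the minus strand.
Ube2c: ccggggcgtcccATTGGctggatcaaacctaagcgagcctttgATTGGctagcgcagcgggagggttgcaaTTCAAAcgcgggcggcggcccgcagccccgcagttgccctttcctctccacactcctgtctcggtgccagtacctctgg
Bub1: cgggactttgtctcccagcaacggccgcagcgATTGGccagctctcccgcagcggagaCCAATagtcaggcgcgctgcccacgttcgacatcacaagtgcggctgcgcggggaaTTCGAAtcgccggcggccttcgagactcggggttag
Cdc20: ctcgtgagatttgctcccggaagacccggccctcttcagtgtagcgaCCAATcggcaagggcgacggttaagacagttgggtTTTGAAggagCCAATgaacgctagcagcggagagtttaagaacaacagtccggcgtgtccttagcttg
Spc25: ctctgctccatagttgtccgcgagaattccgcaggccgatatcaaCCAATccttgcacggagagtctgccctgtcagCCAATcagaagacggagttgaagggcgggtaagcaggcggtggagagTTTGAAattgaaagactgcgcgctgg
Ttk: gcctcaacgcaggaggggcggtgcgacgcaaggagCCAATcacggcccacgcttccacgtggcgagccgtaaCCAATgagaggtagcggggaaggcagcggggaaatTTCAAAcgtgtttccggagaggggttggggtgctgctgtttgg
Cdca8: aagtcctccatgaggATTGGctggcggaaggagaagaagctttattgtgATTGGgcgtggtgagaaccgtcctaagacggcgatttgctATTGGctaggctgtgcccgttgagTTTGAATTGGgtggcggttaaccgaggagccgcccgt
Nuf2: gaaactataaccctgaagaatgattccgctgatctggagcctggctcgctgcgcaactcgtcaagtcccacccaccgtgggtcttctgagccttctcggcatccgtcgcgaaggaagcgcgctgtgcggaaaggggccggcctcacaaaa
Mis12: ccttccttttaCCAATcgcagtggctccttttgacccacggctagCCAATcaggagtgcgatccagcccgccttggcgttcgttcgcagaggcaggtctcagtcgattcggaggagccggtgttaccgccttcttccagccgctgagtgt
Mad1l1: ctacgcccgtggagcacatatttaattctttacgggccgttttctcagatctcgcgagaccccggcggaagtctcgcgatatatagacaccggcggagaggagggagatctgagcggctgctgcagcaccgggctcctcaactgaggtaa

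In Ube2c, Cdc20, Bub1, Spc25, Ttk and Cdca8 the CHR letters begin between 29 bases before and 25 bases after the start, downstream of at least 1 match to CCAAT. In Cdca8, and also in Cenpw, CHR and CCAAT letters share 1 base. Of the members' promoters, 22 of 43 (51.2%) held CHR letters, beside 19.2% of all 32851 promoters and 14% of the 13250 promoters of genes tested. CCAAT letters stood in 31 of 43 (72.1%), beside 37.4% of all promoters, and both stood in 18 (41.9%), beside 7.52%. CHR letters within the 110 bases nearest the 3′ end of the window, a range set after the matches were seen, stood in 18 of 43 (41.9%), beside 5.9% of all promoters. The 2 promoters of Bub3 overlap and share their matches.

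The size of the change did not sort the promoters cleanly. Members with a log2 fold change below -1 held CHR letters in 16 of 28 promoters (57.1%), and the other members in 6 of 15 (40%). For the 110 bases nearest the 3′ end these shares were 53.6% and 20%. Pttg1, at -1.75, had neither letter in this window, nor had Birc5 at -1.20 or Mad2l1 at -1.05, whereas Cenpm at -0.35 had both. For Pttg1, Mad2l1, Cdca8, Cenpm and Cenpt the window, set by RefSeq's start, missed the outermost start in the GENCODE annotation. This covers members with and without the letters. The window of Pttg1, on the minus strand, ended at 43426231, inside the gene, which reaches 43426251. That of Mad2l1, on the plus strand, ended at 66535270, before the gene's start at 66535390. On the minus strand, the window of Cdca8 ended at 124937167, inside the gene, which reaches 124939311. The window of Cenpm ended at 82244586 and its gene reaches 82244748. For Cenpt these positions were 105852258 and 105853278. Letters around those GENCODE starts were not searched. No test was made of these shares.

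**Figure D2:**
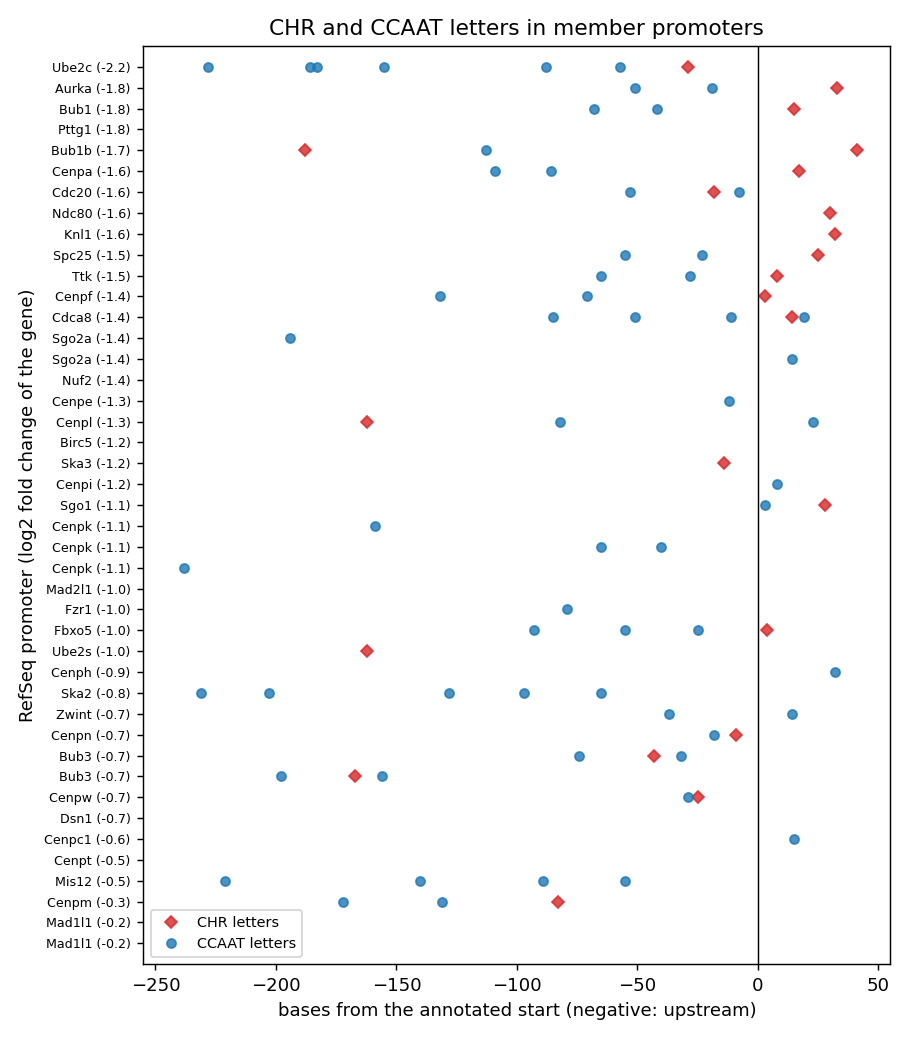
Where CHR letters (diamonds) and CCAAT letters (circles) begin in each of the 43 promoters of members, in bases from the annotated start (horizontal), with promoters ordered from the lowest log2 fold change at the top. Diamonds cluster around the start. They stand in 16 of the 28 rows with a log2 fold change below -1 and in 6 of the other 15. Rows with no symbol, among them Pttg1, Nuf2 and Mad1l1, hold neither.

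The inner kinetochore is the layer that sits on centromeric DNA all through the cell cycle. Its 10 members all fell, 4 of them by more than 1 on the log2 scale, with a median of -0.79 and 51.7% of the summed Control level left. Cenpa, the histone H3 variant that marks the centromere, fell most. It was at 97.0, 95.9 and 94.8 CPM in Control and at 29.1, 30.5 and 32.3 CPM in Hdac4-knockdown libraries (log2 fold change -1.64, SE 0.052, adjusted p = 3.10e-16). The gap between the groups was many times the spread inside each. Cenpm, a subunit of the constitutive centromere network, changed least. It was at 18.5, 18.2 and 21.4 CPM in Control and at 13.2, 16.0 and 16.4 CPM in Hdac4-knockdown libraries (log2 fold change -0.35, SE 0.091, adjusted p = 0.002). Its groups did not overlap, but their gap was close to the spread within them.

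The members between these were partners in the same network. Cenpl fell by 1.26 on the log2 scale and its direct partner Cenpn, which binds the Cenpa nucleosome, by 0.69. In the Cenph, Cenpi and Cenpk subcomplex the log2 fold changes were -0.88, -1.16 and -1.07. Cenpt and Cenpw, histone-fold proteins that recruit the outer kinetochore, were at -0.50 and -0.69. Cenpc1, the scaffold that links Cenpa to the Mis12 complex, fell by 0.61. Within a library, counts of Cenpa were 1.95 ± 0.0706 times those of Cenpc1 in Control and 0.956 ± 0.0699 times in Hdac4-knockdown cells (SD, n = 3).

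The outer kinetochore is built in mitosis and binds the microtubule. Its 9 members fell with a median of -0.86, and they were spread over a broad range. The Ndc80 complex, the main microtubule coupler, has the subunits Ndc80, Nuf2, Spc24 and Spc25. Ndc80 was at 84.4, 81.4 and 75.8 CPM in Control and at 26.3, 24.4 and 27.1 CPM in Hdac4-knockdown libraries (log2 fold change -1.64, SE 0.059, adjusted p = 2.42e-15). All 3 Hdac4-knockdown values were below every Control value by a wide margin. Spc25 and Nuf2 were near it, at -1.51 and -1.39, whereas Spc24 was at -0.86 (SE 0.061). The count ratio of Spc24 to Spc25 rose from 0.529 ± 0.0180 to 0.836 ± 0.0630 (SD, n = 3). Ndc80 and Spc25 kept overlapping ratios, 1.11 ± 0.103 in Control and 1.02 ± 0.0518 in Hdac4-knockdown cells.

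Knl1, the scaffold on which checkpoint proteins assemble, fell by 1.56, and Zwint, its partner that links it to the RZZ complex, by 0.74. Subunits of the Mis12 complex, which joins the inner to the outer layer, changed least in this layer, with Dsn1 at -0.66, Nsl1 at -0.60 and Mis12 at -0.46. Mis12 was at 65.5, 66.2 and 64.0 CPM in Control and at 48.9, 46.0 and 47.8 CPM in Hdac4-knockdown libraries (SE 0.050, adjusted p = 9.46e-08). That change was small but clear of the spread between libraries. Knl1 counts were 1.44 ± 0.0665 times those of Mis12 in Control and 0.668 ± 0.0496 times in Hdac4-knockdown cells (SD, n = 3).

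The corona is the fibrous outermost layer on unattached kinetochores. Cenpf, a large coiled-coil protein of the corona, was at 180, 178 and 182 CPM in Control and at 72.1, 59.4 and 70.1 CPM in Hdac4-knockdown libraries (log2 fold change -1.42, SE 0.057, adjusted p = 1.54e-14). Cenpe, the kinesin that carries chromosomes to the spindle equator, was at 161, 170 and 168 CPM in Control and at 77.0, 59.7 and 67.2 CPM in Hdac4-knockdown libraries (log2 fold change -1.29, SE 0.065, adjusted p = 5.23e-13). For both genes Hdac4-knockdown replicate 2 was the lowest library.

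The Ska complex tracks microtubule ends together with Ndc80. Ska1 was among the members with the lowest counts and was at 17.3, 17.3 and 16.1 CPM in Control and 5.04, 4.38 and 5.88 CPM in Hdac4-knockdown libraries (log2 fold change -1.73, SE 0.11, adjusted p = 1.32e-11). Ska2 was at 32.0, 27.3 and 28.7 CPM in Control and 17.9, 16.6 and 16.8 CPM in Hdac4-knockdown libraries (log2 fold change -0.78, SE 0.074, adjusted p = 1.17e-08). Ska1 counts went from 0.578 ± 0.0478 of those of Ska2 to 0.298 ± 0.0451 (SD, n = 3). Ska3 lay between them at -1.16.

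**Figure D3:**
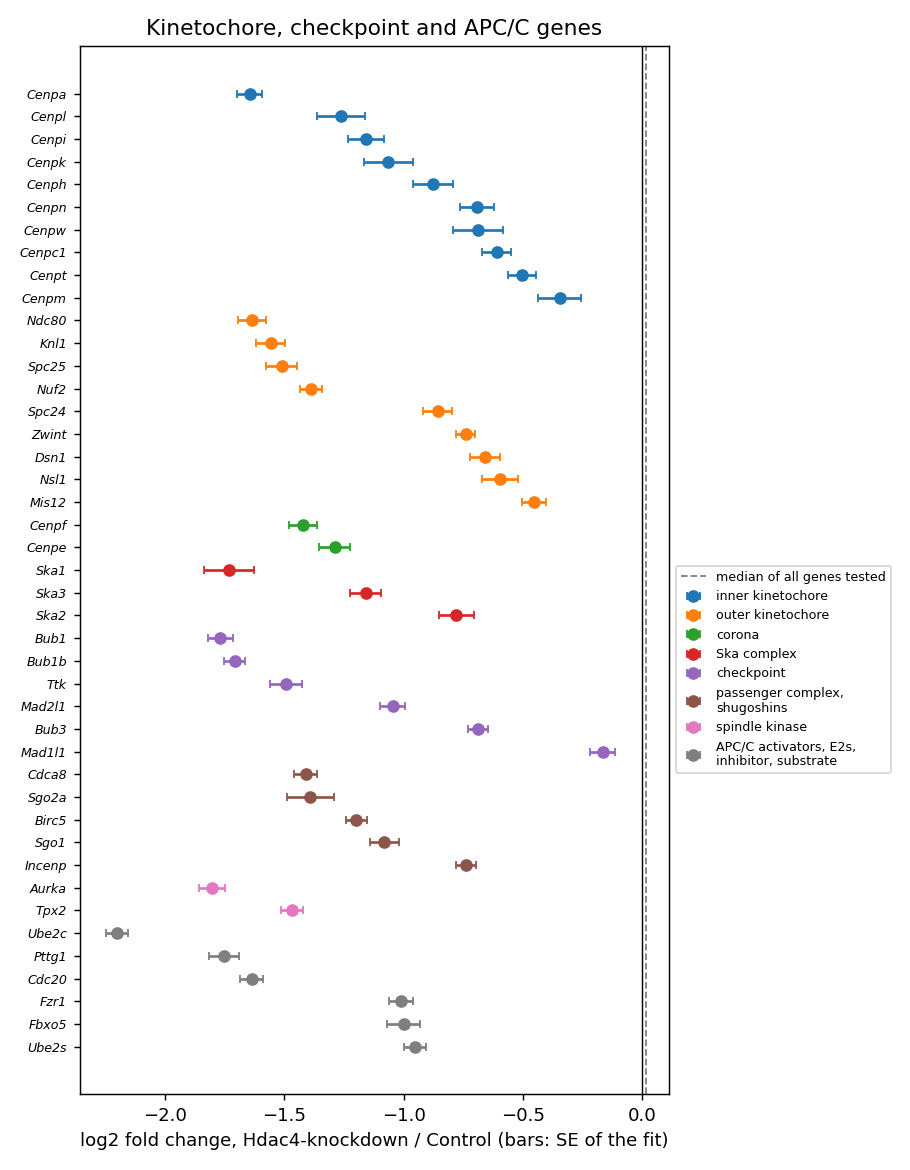
Log2 fold change of each of the 43 genes, Hdac4-knockdown over Control (horizontal), with bars for the SE of the fit and colours for the role; the solid line is 0 and the dashed line the median of all genes tested. Every point lies left of 0, from -2.20 in Ube2c to -0.17 in Mad1l1, and most roles hold both large and small changes.

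Among the checkpoint genes, the kinases and the kinase-like BubR1 fell most. Bub1, the kinase that marks the inner centromere, was at 131, 125 and 131 CPM in Control and at 39.8, 35.4 and 38.2 CPM in Hdac4-knockdown libraries (log2 fold change -1.77, SE 0.052, adjusted p = 8.85e-17). Bub1b, which encodes BubR1 of the mitotic checkpoint complex, fell by 1.71, and Ttk, the Mps1 kinase that starts the signal, by 1.49. Their binding partner Bub3 fell by 0.69 (SE 0.042). Bub1 counts went from 0.816 ± 0.0330 to 0.386 ± 0.0275 of those of Bub3, and Bub1b counts from 1.12 ± 0.0150 to 0.550 ± 0.0171 (SD, n = 3).

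Mad2l1, the protein that is switched on unattached kinetochores, fell by 1.05. Mad1l1, which anchors it there, was at 60.5, 63.4 and 61.6 CPM in Control and at 55.6, 56.9 and 52.7 CPM in Hdac4-knockdown libraries (log2 fold change -0.17, SE 0.051, adjusted p = 0.0059). This was the smallest change of any member, and its call depended on the processing. It was lost with library size alone as the scale (log2 fold change -0.11, adjusted p = 0.0548), with upper quartile scaling (-0.078, adjusted p = 0.173) and without Hdac4-knockdown replicate 3 (-0.13, adjusted p = 0.0523). Mad2l1 counts went from 1.72 ± 0.106 to 0.937 ± 0.0976 times those of Mad1l1 (SD, n = 3).

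The chromosomal passenger complex corrects wrong attachments through the Aurora B kinase, and shugoshins protect centromeric cohesion. Cdca8, the subunit borealin, was at 109, 117 and 111 CPM in Control and at 42.1, 41.5 and 43.2 CPM in Hdac4-knockdown libraries (log2 fold change -1.41, SE 0.048, adjusted p = 1.19e-15). Incenp, the scaffold of the complex, was at 192, 198 and 192 CPM in Control and at 111, 117 and 121 CPM in Hdac4-knockdown libraries (log2 fold change -0.74, SE 0.043, adjusted p = 6.38e-12). Birc5, or survivin, lay between them at -1.20. Survivin and borealin counts did not move alike against the scaffold: Birc5 went from 0.642 ± 0.0220 to 0.467 ± 0.0125 of Incenp, and from 1.11 ± 0.0609 to 1.28 ± 0.0233 of Cdca8 (SD, n = 3). The shugoshins Sgo1 and Sgo2a were at -1.08 and -1.39.

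Aurka, the kinase of spindle poles, was at 104, 98.5 and 102 CPM in Control and at 27.7, 28.4 and 31.2 CPM in Hdac4-knockdown libraries (log2 fold change -1.80, SE 0.055, adjusted p = 1.58e-16). Its activator Tpx2, which also nucleates microtubules, was at 272, 263 and 269 CPM in Control and at 97.7, 91.3 and 102 CPM in Hdac4-knockdown libraries (log2 fold change -1.47, SE 0.045, adjusted p = 2.23e-16). Of the roles, this pair kept the smallest part of its summed Control level, 34.1%.

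The regulators of the APC/C held the largest change. Ube2c, the enzyme that hands the first ubiquitin to APC/C substrates, was at 203, 210 and 199 CPM in Control and at 43.8, 46.1 and 43.5 CPM in Hdac4-knockdown libraries. This left 21.8% of its Control level (log2 fold change -2.20, SE 0.046, adjusted p = 4.44e-19). Ube2s, which extends the chains that Ube2c begins, was at 162, 158 and 158 CPM in Control and at 79.2, 86.7 and 81.0 CPM in Hdac4-knockdown libraries (log2 fold change -0.95, SE 0.045, adjusted p = 2.24e-13). The ratio of Ube2c to Ube2s counts went from 1.28 ± 0.0389 to 0.541 ± 0.0111 (SD, n = 3), a log2 difference of -1.25 (SE 0.030) that was the largest of the 24 pairs compared.

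The 2 activators of the APC/C did not fall equally. Cdc20, which acts in mitosis and is the target of the checkpoint, fell from 202 ± 0.955 to 64.9 ± 3.94 CPM (log2 fold change -1.64, SE 0.047), and Fzr1, or Cdh1, which acts at mitotic exit and in G1, from 141 ± 6.08 to 70.1 ± 3.95 CPM (log2 fold change -1.01, SE 0.050). Cdc20 counts were 1.43 ± 0.0648 times those of Fzr1 in Control and 0.926 ± 0.0200 times in Hdac4-knockdown cells (SD, n = 3). Fbxo5, or Emi1, the inhibitor of the APC/C, fell by 1.00. Its ratio to Fzr1 was 0.487 ± 0.0334 in Control and 0.491 ± 0.0649 in Hdac4-knockdown cells, with a log2 difference of 0.0064 (SE 0.13, two-sided exact permutation p = 1), so a difference could not be detected with this spread. Pttg1, which encodes securin, the inhibitor of separase, fell by 1.75 and its ratio to Cdc20 overlapped between groups, at 0.273 ± 0.0111 and 0.253 ± 0.0259 (SD, n = 3).

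Ratios within a library do not depend on how libraries are scaled. Of the 24 pairs, 19 had ratios that did not overlap between groups, with a two-sided exact permutation p of 0.1, the smallest that 3 libraries against 3 allow (0.126 after Benjamini-Hochberg adjustment over the pairs). No pair could reach 0.05 in this design. Such separation was as common among genes in general: of all pairs of 2 tested genes with at least 141 counts in every library, the lowest count of a member, 79.4% had ratios that did not overlap, and 75.8% with at least 1 count. The number of separated pairs is therefore no trait of the members, and only the sizes of the ratios describe them. The pairs that overlapped were Ndc80 to Spc25, Dsn1 to Nsl1, Cenpt to Cenpw, Fbxo5 to Fzr1 and Pttg1 to Cdc20.

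**Figure D4:**
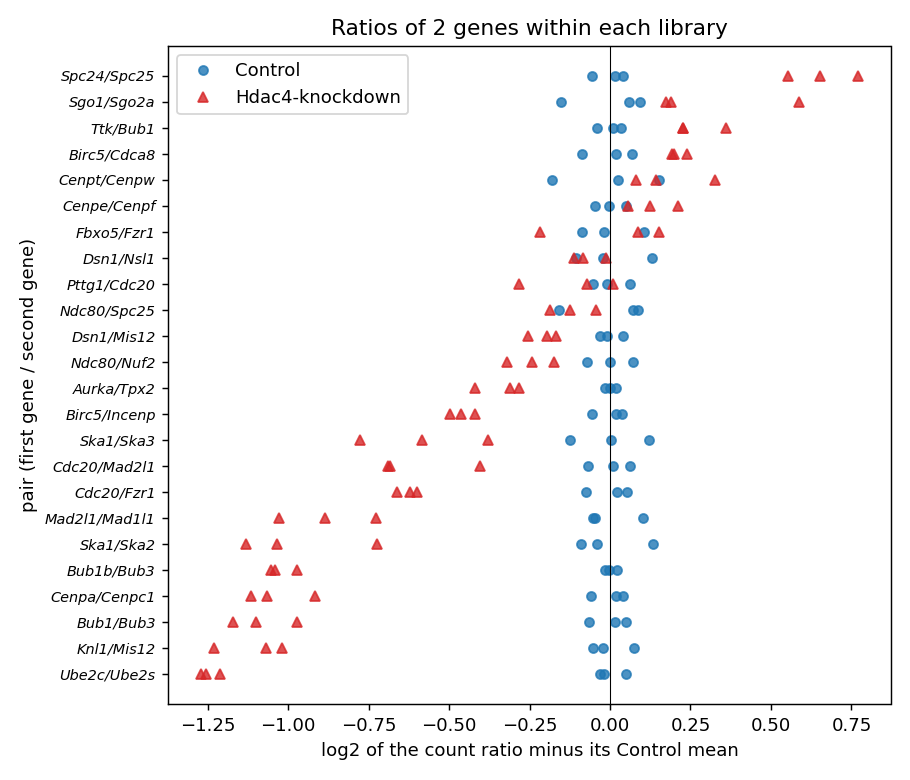
Log2 of the count ratio of each of 24 pairs of genes in each library, less its mean over the Control libraries (horizontal), for Control (circles) and Hdac4-knockdown libraries (triangles). Triangles reach from -1.25 on average for Ube2c to Ube2s to 0.66 for Spc24 to Spc25, and cross the circles in 5 pairs.

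The APC/C itself gave another picture than its regulators. Of its 14 core subunits, none of them members, 8 were called lower, 3 higher and 3 neither, and none was below -1. Their summed level went from 1560 ± 11.6 to 1286 ± 12.2 CPM (SD, n = 3), which left 82.4%, and their median log2 fold change was -0.26. The scaffold subunits Cdc23 and Cdc27 were lowest, at -0.79 and -0.60. Anapc2, the cullin of the catalytic core, was higher at 0.29, as were Cdc26 at 0.32 and Anapc16 at 0.24, and these 3 were called higher under every scaling tried. Anapc7, Anapc10 and Anapc13 were not called, at 0.050, -0.099 and 0.041. The call for Anapc15, the subunit with the lowest CPM, which also has an annotated pseudogene copy, was lost under upper quartile scaling, under DESeq2 and without Hdac4-knockdown replicate 3.

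Other genes of mitosis stood closer to the members. All 17 further centromere and kinetochore genes were called lower, with a median of -0.92 and 8 of them below -1. The lowest was Knstrn, a spindle and kinetochore protein, at -1.58. Nearest to 0 were Hjurp, the chaperone that deposits Cenpa, at -0.32 and Zw10 of the dynein-recruiting RZZ complex at -0.33. Hjurp changed far less than its client Cenpa, at 254 ± 2.26 CPM in Control and 203 ± 1.26 CPM in Hdac4-knockdown cells (SD, n = 3).

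All 6 further checkpoint and mitotic kinase genes were lower, with a median of -1.42, from the kinases Aurkb at -1.84 and Plk1 at -1.76 to Trip13, which disassembles the checkpoint complex, at -1.06 and its adaptor Mad2l1bp at -0.35. The 7 spindle assembly partners had a median of -1.69, from Hmmr at -1.91 and Prc1 at -1.82 to Ckap5 at -1.27 and Numa1 at -0.40. All 12 further APC/C substrates were lower, with a median of -1.38, the lowest being Ccnb1, cyclin B1, which went from 232 ± 2.15 to 58.0 ± 2.48 CPM (SD, n = 3), and the nearest to 0 being Skp2 at -0.58 and Cdc6 at -0.22. Plk1, Aurkb and Hmmr stand in 2 of these lists.

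Genes of DNA replication changed less. Of 21 licensing and fork genes, 20 were lower, 1 of them below -1, and the median was -0.38. Gins1 and Mcm7 were lowest at -1.01 and -0.81, Mcm6 was at -0.13, and Cdt1, the licensing factor, was at 0.07 and not called. Of 20 cohesin, condensin and separase genes, 16 were lower and 5 of these were below -1, with a median of -0.74. The condensin subunits Ncapg and Ncaph were at -1.68 and -1.63, while the cohesin subunit Smc3 was at 0.15 and the cohesin regulator Pds5b at 0.02. Smc3 was no longer called higher without Control replicate 2 or without Hdac4-knockdown replicate 3. Cdt1 was called higher with library size alone, with upper quartile scaling and with at least 10 counts in every library. The differences between these lists and the members were not tested.

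**Figure D5:**
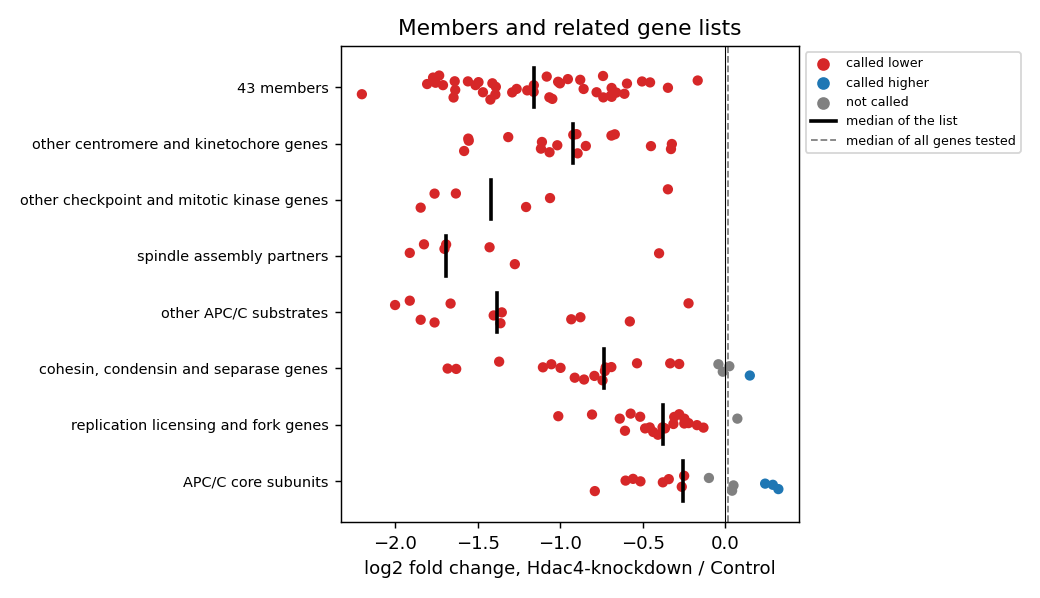
Log2 fold change, Hdac4-knockdown over Control (horizontal), of the 43 members and of the genes of 7 related lists, with black bars for the median of each list and colours for the call. The members are all called lower with a median of -1.16, and the APC/C core subunits lie around a median of -0.26 with calls in both directions.

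Levels of different genes were compared per kilobase of exon (FPKM, from the merged length of all annotated exons of a gene). By that measure Cdc20 was the most abundant member in Control, at 108 ± 0.511 FPKM, followed by Ube2c at 78.6 ± 2.12 and Zwint at 63.4 ± 1.02 FPKM (SD, n = 3). The order changed in Hdac4-knockdown cells, where Zwint was at 38.0 ± 0.606, Cdc20 at 34.7 ± 2.11 and Ube2c at 17.1 ± 0.541 FPKM. Reads on sequence shared with other genes may have been left out, so these levels may be too low. Of the 50-base words in their transcripts, 10.6% for Cdc20, 16% for Ube2c and 2.02% for Zwint also stood in transcripts of other genes. Over the 43 members, log2 FPKM in Control and log2 fold change had a Pearson r of -0.29 and a Spearman rho of -0.30, given as a description across genes of the same libraries.

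Other cell type markers differed between the groups. The summed level of 4 muscle markers (Myod1, Myog, Des and Ckm) was 802 to 843 CPM in Control and 108 to 124 CPM in Hdac4-knockdown libraries, and all 4 were called lower. Of 8 osteoblast lineage markers, 5 were tested, with 4 higher and 1, Spp1, lower. Their summed level was 4768 to 4781 CPM in Control and 21430 to 22270 CPM in Hdac4-knockdown libraries, and the rise lay in 2 collagen genes, named after their values were seen. Col1a1 went from 338 ± 14.4 to 11010 ± 326 CPM and Col1a2 from 1213 ± 22.5 to 8572 ± 163 CPM, while Spp1 fell from 3154 ± 30.9 to 2046 ± 36.1 CPM (SD, n = 3). Runx2, a transcription factor of the osteoblast lineage, was at 69.9 ± 4.64 and 79.5 ± 5.68 CPM (SD, n = 3) in Control and Hdac4-knockdown cells. It was called higher (log2 fold change 0.19, SE 0.058, adjusted p = 0.00719), although its libraries overlapped between groups. Alpl had at most 3 counts, Ibsp at most 7 and Bglap at most 12 in any library. The 4 endothelial markers, of which Pecam1 was tested and higher, summed to 0.196 to 0.234 CPM in Control and 2.33 to 2.49 CPM in Hdac4-knockdown libraries. Of the 4 adipocyte markers Pparg was tested and lower, and the sum was 27.1 to 29.3 CPM against 2.64 to 4.05 CPM. Of the 4 blood and macrophage markers 2 were tested, with Csf1r higher and Cd68 not called, and they summed to 1.58 to 2.58 CPM in Control and 2.49 to 3.10 CPM in Hdac4-knockdown libraries, and of the 4 neuron and glia markers only Mbp was tested, which was not called, at 2.57 to 2.60 and 2.42 to 3.17 CPM. The markers not tested had too few counts to pass the filter. Adgre1 and Snap25 were at 0 in all 6 libraries. These sums cover the markers that passed the filter, and the part of these differences in the members' result was not tested.

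Reads carried no strand, so genes that share exon bases cannot be fully told apart. More than 5% of exon bases were shared in 4 members: Sgo2a with Kctd18, Ube2c with Tnnc2, Ska2 with Gm11491 and Mis12 with Derl2. Tnnc2 had 0 counts in all 6 libraries and Gm11491 at most 1, Kctd18 was at 12.6 to 15.3 CPM in Control and 13.8 to 15.5 CPM in Hdac4-knockdown libraries, and Derl2 was at 57.8 to 61.0 and 45.0 to 49.7 CPM. Reads on the shared bases may have been left out of both genes, so the level of Sgo2a, with 35% of its exon bases shared, is the least certain of these.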

How the data were processed

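Poly-A RNA from MC3T3-E1 cells was sequenced in 3 Control and 3 Hdac4-knockdown libraries with a kit that does not keep strand. The authors deposited a table per library of raw counts, the reads on each Ensembl gene with no normalization. Per the submitters' processing notes, STAR 2.7.3a, HTSeq 0.12.4 and the mm10 build were used, and the options are not given in the sources used here. The summary lines for reads outside genes, ambiguous or not uniquely aligned, 14.3% to 15.0% of all lines, were left out. Groups and replicate numbers came from the sample titles. GENCODE M21 (GRCm38) held 53706 of the 53801 identifiers and supplied positions and exon lengths. Symbols came from a separate list of gene names, which covered 53620 identifiers.

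The counts of all 6 libraries entered one edgeR fit (edgeR 4.0.16, R 4.3.3) after TMM normalization and filterByExpr with its defaults. The quasi-likelihood F test was adjusted by Benjamini-Hochberg over 14531 genes. The SE of a log2 fold change is its size divided by the square root of F. Ratios between members were taken from counts within a library and compared by two-sided exact permutation tests. The SE of their log2 difference comes from the variance of the log2 ratios between the libraries of each group. Promoter sequences are RefSeq's for GRCm38.p6. The test was checked on simulated data in which far fewer genes were changed than were called here. That check therefore does not cover the scaling of libraries that differ as widely as these. Replicates of a group differed by more than sampling noise, with a chi-square per degree of freedom of 3.38 to 9.15. Figures used matplotlib 3.10.9.

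The members and gene lists were chosen with earlier results of these data known. Members printed for every library are, in each role, the one with the lowest and the one with the highest log2 fold change. From each list the 2 lowest and the 2 highest genes could be named, with any core subunit of the APC/C, and 1 such gene is not reported here. Tnnc2, Kctd18, Gm11491 and Derl2 were named because they share exons with members. The alternatives changed the scaling (size factors of DESeq2, library size alone, upper quartile), the filter (1 count in total, or 10 counts in each of the libraries), the test (DESeq2 1.42.0, or limma 3.58.1 with voom), the threshold on the log2 fold change (0.5 or 1) and the design (replicate block), or left out 1 library.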

Additional observations from a re-analysis of the deposited data

How the results depend on the processing

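Each member's log2 fold change was recomputed under 14 alternatives of scaling, filter, test, block and libraries, which gave 602 values. None changed sign and 599 stayed on the same side of the threshold, the other 3 being those of Mad1l1 given above. The number of members called lower was 42 or 43 under these alternatives, 40 with a fold change threshold of 0.5 and 27 with a threshold of 1. The number below -1 ranged from 22, with upper quartile scaling, to 27. The members' median log2 fold change was -1.07 with upper quartile scaling, which moved the median of all genes by 0.0892, and ranged from -1.18 to -1.06 when 1 library was left out, where leaving out Hdac4-knockdown replicate 2 gave -1.06. Over all genes, 2879 were called lower and 3579 higher with a threshold of 0.5, and 1543 and 2397 with a threshold of 1.

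Replicate numbers did not pair the libraries, as deviations of libraries with the same number correlated at -0.0111, 0.0270 and 0.0166. With the replicate block 43 members were called lower and 5441 genes were lower over all. The balance of calls over all genes moved with the scaling, from 5393 lower and 5521 higher to 4891 and 5996 with library size alone and to 4608 and 6316 with upper quartile scaling. The ratios between members cannot go below p = 0.25 in an exact sign permutation test with the replicate block.

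The design limits what can be read from these values: 3 RNA samples a group, 1 hairpin in 1 cell line, and bulk RNA, which does not give the share of cells in each phase. The flow cytometry of cell cycle phases that the study also ran is not analysed here.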

Other observations

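Spread between libraries is given for the members beside all genes. The coefficient of variation over the 3 libraries of a group had a median of 2.89% over the 43 members in Control and 5.64% in Hdac4-knockdown cells, and it was highest for Cenpl in Control (13.1%) and for Ska1 in Hdac4-knockdown cells (14.8%). Over the 9618 genes tested with at least 141 counts in every library the medians were 3.71% and 4.71%. The spread was thus wider in Hdac4-knockdown cells there too, but by less than in the members. The members had lower counts in Hdac4-knockdown libraries, and the 9618 genes were matched to them only by the floor of 141 counts. The part of lower counts in the members' wider spread was not tested. The members' median was below that of these genes in Control and above it in Hdac4-knockdown cells, a difference that was not tested. Against the Control mean, the median shift of the members' log2 CPM was -1.11, -1.20 and -1.05 in Hdac4-knockdown replicates 1, 2 and 3, and between -0.016 and 0.0083 in the Control libraries. Hdac4-knockdown replicate 2 was the lowest for the summed corona genes, at 119 CPM beside 149 and 137 CPM in the other libraries of its group.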
